A study of Danio rerio with 4 samples.

Results

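The mitochondrial ribosomal protein genes were taken as the rows of the deposited table whose gene symbol begins with mrpl or mrps followed by a digit. They numbered 74 of 30838 rows, 46 named for the large subunit and 28 for the small subunit. Expression was measured in zebrafish of the AB strain in 2 groups of 2 libraries each, smu07 mutants and their siblings. All larvae were 4 days post fertilization and untreated, and about 500 cells entered each library after sorting for low fluorescence of cd41:eGFP, the reporter gate of hematopoietic stem and progenitor cells, or HSPCs. The series title names slc20a1b, but the labels give neither the lesion behind smu07 nor the genotypes pooled as siblings, which the design text calls wild type. Values are TPM, a share of transcripts that corrects for the length of the gene and adds up to one fixed sum per library.

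Mitochondria carry their own ribosome, which translates the few messages of the mitochondrial genome, all of them for subunits of the respiratory chain and the ATP synthase. Its ribosomal RNAs are transcribed inside the organelle, whereas its proteins are encoded in the nucleus, made in the cytosol and imported. Part of these proteins have bacterial counterparts, and others occur only in mitochondria. The large subunit forms the peptide bond and holds the exit tunnel, and the small subunit binds and decodes the message. Roles of single proteins given here are known from human or other mammalian mitochondrial ribosomes or from their bacterial counterparts, not from zebrafish.

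Whole reads recovered from the ratios of TPM between libraries came to 27570271 and 29253615 in the mutants, against 24480164 and 25955968 in the siblings. More genes were above 0 in the mutants, 23881 and 23978, against 19528 and 19811 in the siblings. The 74 members together took 86435 and 95134 of these reads in the mutants, against 99526 and 104851 in the siblings. The gate transcript itga2b stood at 23.5 and 19.3 TPM in the mutants and at 50.8 and 66.9 TPM in the siblings. All 8 HSPC markers were detected in every library, with a summed level of 299 to 312 TPM in the mutants and 455 to 476 TPM in the siblings. Of these markers 4 were called lower, 1 was called higher and 3 were not called. The one called higher was runx1, a transcription factor of blood stem cell formation, at 15.7 and 14.6 TPM in the mutants and at 8.10 and 7.10 TPM in the siblings. Several markers of other cell types were detected too, and bulk RNA does not tell which cells they came from. Of 7 erythroid markers 5 were tested and 5 were lower in the mutants (198 to 293 TPM summed in the mutants, against 602 to 1105 TPM in the siblings), with gata1a and alas2 at or near 0. Of these, hbbe1.1 was far apart between the siblings, at 768 and 231 TPM, against 76.9 and 128 TPM in the mutants. Of 7 thrombocyte markers 4 were lower and 1 was higher in the mutants (748 to 921 TPM summed in the mutants, against 1687 to 1887 TPM in the siblings). Most of these thrombocyte sums came from 1 gene, blf, at 555 and 755 TPM in the mutants and at 1637 and 1414 TPM in the siblings. Of 7 macrophage markers 5 were tested and 5 were higher in the mutants (815 to 845 TPM summed in the mutants, against 277 to 307 TPM in the siblings), with c1qa at 0 and mpeg1.1 near 0. Most of the macrophage sums came from ctsl.1, at 558 and 564 TPM in the mutants and at 189 and 151 TPM in the siblings. Of 5 neutrophil markers with a row 4 were tested, 3 higher and 1 lower (551 to 650 TPM summed in the mutants, against 352 to 360 TPM in the siblings), with lyz below 1 TPM in every library. In the siblings most of the neutrophil sum came from srgn, the marker called lower, at 244 and 261 TPM, against 141 and 175 TPM in the mutants. Of 7 keratinocyte markers 6 were tested and 5 were higher (175 to 271 TPM summed in the mutants, against 50.5 to 60.2 TPM in the siblings), with krt5 near 0. Most of the keratinocyte sums came from icn, at 179 and 113 TPM in the mutants and at 43.2 and 27.6 TPM in the siblings. These differences run through the same libraries as every result that follows, and their part in the results was not tested.

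Most mitochondrial ribosomal protein transcripts were lower in the mutant libraries, in both subunits alike. Summed over all members, the level was 4483 and 4701 TPM in the mutants, against 6018 and 6000 TPM in the siblings, a share of 0.448 and 0.470% of all TPM in the mutants against 0.602 and 0.600% in the siblings. Both mutant sums lay below both sibling sums, with means of 4592 ± 154 and 6009 ± 13.2 TPM (SD, n = 2 per group), so that the mutant mean was 23.6% lower. In bulk RNA, fewer cells of a type that is rich in these transcripts and less of them per cell cannot be told apart.

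Of the 74 members, 66 averaged 1 TPM or more and entered the test, 42 of the large and 24 of the small subunit. A gene was called where limma on log2(TPM + 1), fitted and adjusted over all 12073 such genes, gave a Benjamini-Hochberg adjusted p under 0.05. By this rule 29 members fell and 0 rose, and 37 were not called. At an unadjusted limma p under 0.05, 44 members were lower and 0 higher. In either direction, 5238 of all 12073 genes tested had such an unadjusted p, and 2126 of the 3551 genes of at least 20 TPM. These background counts were not split by direction, so they are no like measure for the members' counts. Voom on the recovered reads also called 0 members higher, beside 1507 of 12068 genes. The share called lower was 43.9% of the tested members, beside 18.6% of all genes tested, and the share called higher was 0%, beside 9.91%. Most members are abundant, and abundant genes were called lower more often. Among the 3551 genes of at least 20 TPM, 33.4% were called lower and 9.55% higher, and of the 58 members at that level 28, or 48.3%, were called lower.

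In 54 of the 66 tested members (81.8%) both mutant libraries lay below both sibling libraries, beside 44% of all genes tested and 61.3% of those of at least 20 TPM. In 4 members both mutant libraries lay above both siblings, beside 26% of all genes tested. The median log2 difference, mutant minus sibling, was -0.38 over the members, -0.14 over all genes tested and -0.27 over genes of at least 20 TPM. The cytosolic ribosomal protein genes went the other way, with 38 of 72 called higher, 2 called lower and a median of 0.24. They took 305247 and 290164 TPM in the mutants, against 269175 and 260927 TPM in the siblings. Since TPM has a fixed sum, more for one set leaves less for the rest, but the part of this in the members' lower levels was not tested.

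**Figure D1:**
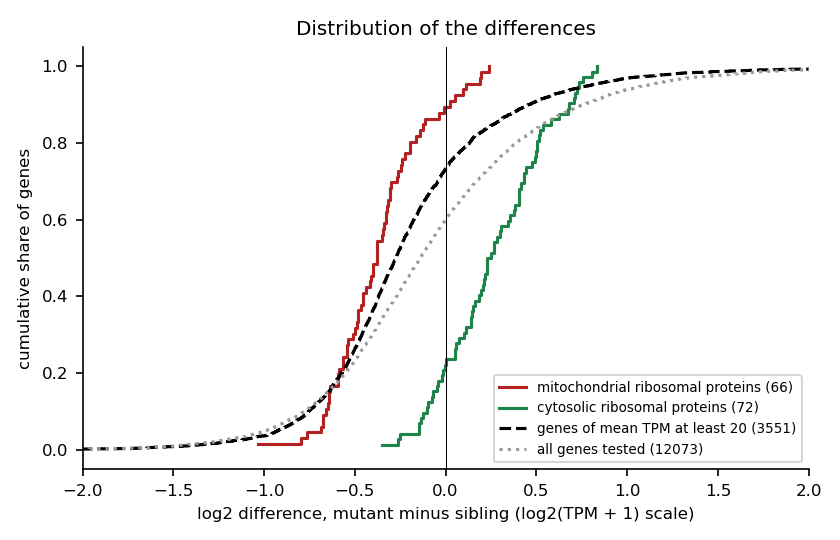
Cumulative share of genes (y axis) against the log2 difference, mutant minus sibling, on the log2(TPM + 1) scale (x axis, drawn from -2 to 2). The curve of the 66 tested mitochondrial ribosomal protein genes crosses a share of 0.5 at its median of -0.38, left of the genes of at least 20 TPM (-0.27), of all genes tested (-0.14) and of the cytosolic ribosomal protein genes (0.24).

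The size of the fall and the number of calls depended on how the libraries were scaled. Under median-of-ratios scaling, under quantile normalization and with TPM rescaled without ribosomal protein genes and mitochondrial rRNA, the members' median was -0.21, -0.17 and -0.24, and 11, 8 and 12 members were called lower. These are 16.7, 12.1 and 18.2% of the tested members, beside 10.3, 11.5 and 11.6% of all genes tested under the same scalings, so that under quantile normalization the share was near that of all genes. The share of genes of at least 20 TPM called lower was not computed under these scalings. Whether the members exceed genes of like abundance there is therefore not known from these shares. Under quantile normalization 2 members, mrpl21 and mrpl32, were called higher. Relative to all genes, the members' median lay at -0.24 as deposited and at -0.22, -0.12 and -0.22 under these scalings. Relative to genes of at least 20 TPM, the median of all 66 tested members lay at -0.11 in all 4 cases. The 58 members of at least 20 TPM alone had a median of -0.39 as deposited. None of the 29 calls changed direction under the 3 scalings, and 8 were called under all 3, namely mrpl4, mrpl12, mrpl19, mrpl51, mrpl53, mrps18b, mrps30 and mrps34. Without mutant replicate 1 or 2, which leaves 1 mutant library, the members' calls were lost, as were nearly all calls of the whole table. The median log2 difference was then -0.36 and -0.44 for the large and -0.38 and -0.39 for the small subunit.

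The large and the small subunit were lower in the mutants by nearly the same amount. Members named for the large subunit summed to 3039 and 3162 TPM in the mutants and to 4019 and 4030 TPM in the siblings, so that the mutant mean was 23.0% lower. Those named for the small subunit summed to 1444 and 1539 TPM in the mutants and to 2000 and 1969 TPM in the siblings, 24.8% lower. The ratio of large to small was 2.11 and 2.05 in the mutants and 2.01 and 2.05 in the siblings. The mean ratio was 2.08 ± 0.0359 in the mutants and 2.03 ± 0.0262 in the siblings (SD, n = 2 per group), and the lower mutant library and the higher sibling library differed by less than these SDs. No p is given for such a ratio, since it is a score over the members.

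Per gene, 17 of 42 tested large-subunit members (40.5%) and 12 of 24 small-subunit members (50%) were called lower. Their median log2 differences were -0.38 and -0.38. In the human ribosome the proteins of mrps18a and mrps30 sit in the large subunit despite their names. Counted there, the median was -0.39 for the large and -0.34 for the small subunit, the calls were 19 of 44 and 10 of 22, and the ratio of summed TPM was 2.51 and 2.43 in the mutants and 2.43 and 2.53 in the siblings, with the groups overlapping.

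**Figure D2:**
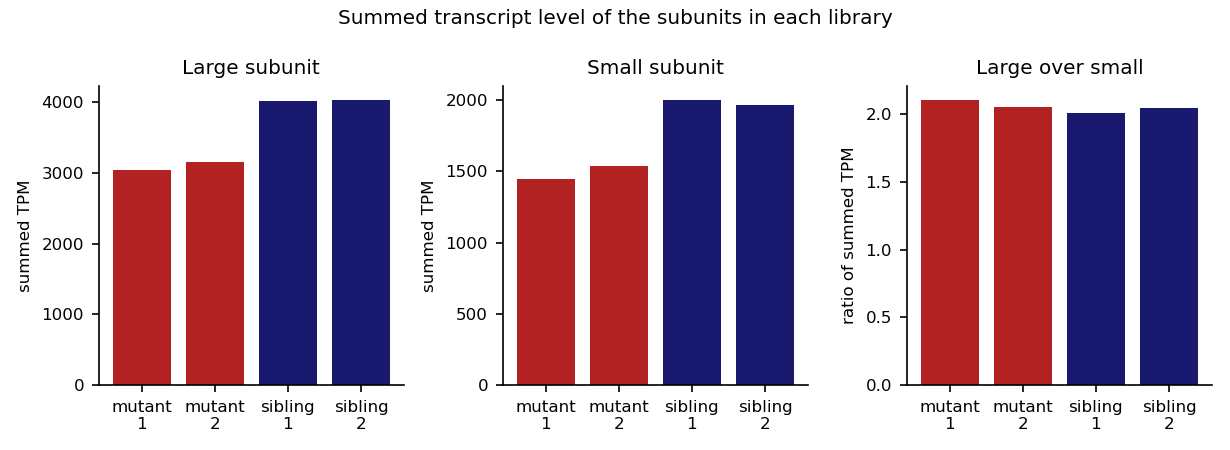
Summed TPM of the 46 large-subunit and 28 small-subunit members, and the ratio of these sums (y axes, from 0), in each library (x axis, mutants left of siblings). Each bar is 1 library. Both sums are lower in the mutant libraries, and the ratio stays between 2.01 and 2.11.

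The levels of single members spanned a wide range, and the highest levels were lower in the mutants. Among tested members they ran from 4.48 to 188 TPM in mutant replicate 1 and from 4.26 to 193 TPM in mutant replicate 2, against 4.24 to 287 TPM in sibling replicate 1 and 3.71 to 274 TPM in sibling replicate 2. In all, 61 members stood at 10 TPM or more in every library. The order of the 66 levels was close between the group means (Spearman's rho = 0.963, across genes that share libraries), as it was between the mutant replicates (0.972) and between the sibling replicates (0.981). Over members, the log2 difference showed little relation to the level (Pearson's r = -0.19, Spearman's rho = -0.11, 66 genes of the same libraries).

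**Figure D3:**
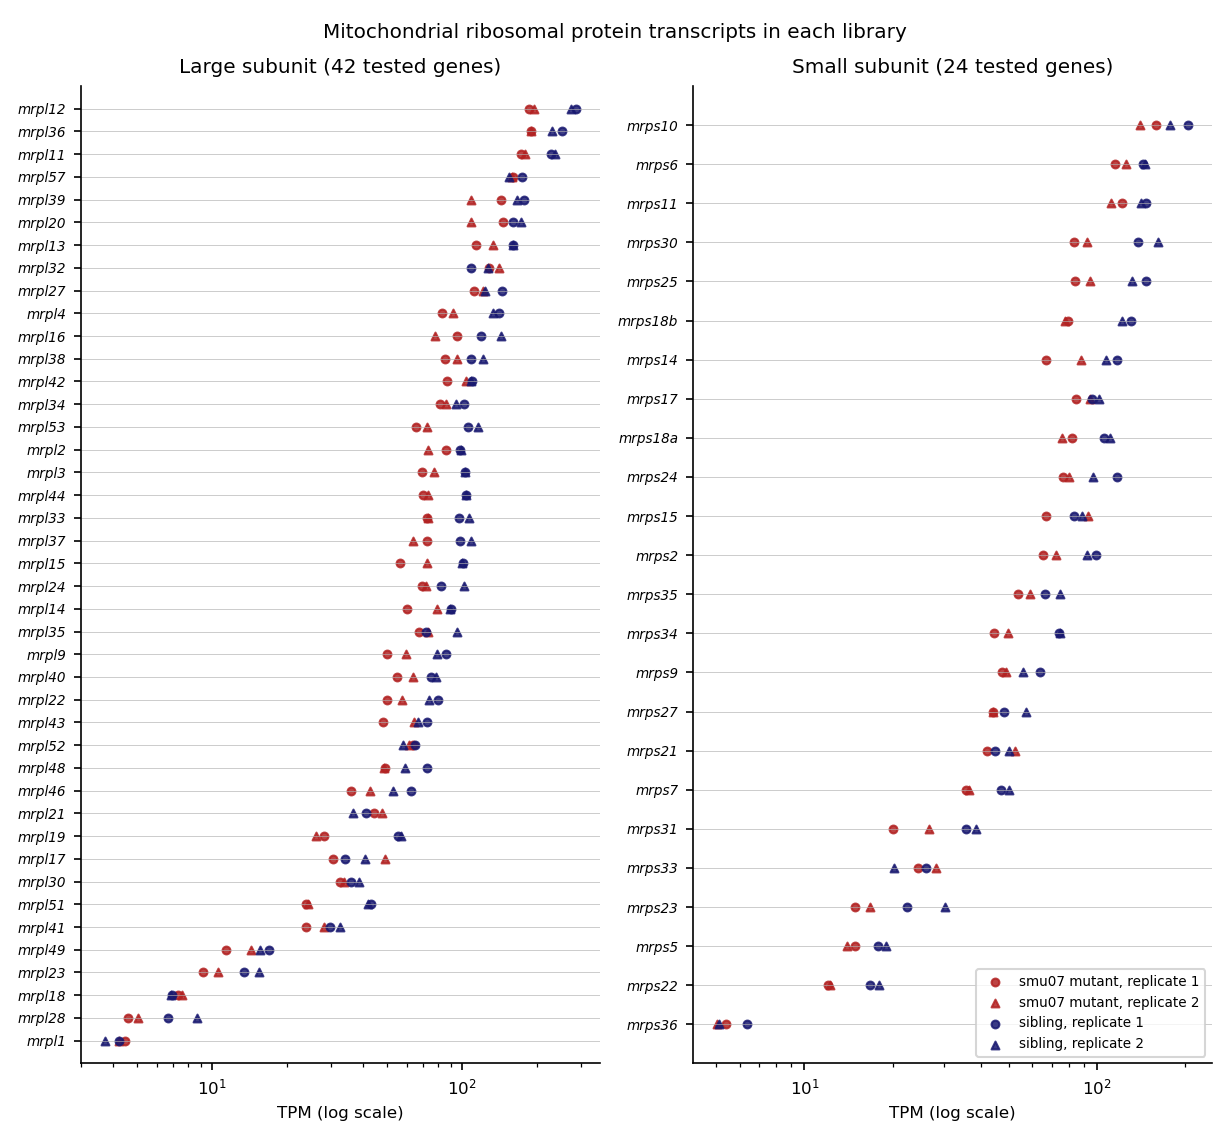
TPM of each tested member on a log scale (x axis), for 42 large-subunit and 24 small-subunit genes ordered by mean level (y axis). Each point is 1 library, red for mutants and blue for siblings. In 54 of the 66 genes both red points lie left of both blue points, and the order of the genes is much the same in both groups.

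The 3 most abundant members belong to the large subunit. The stalk protein gene mrpl12, whose product recruits translation factors to the ribosome, stood at 185 and 193 TPM in the mutants and at 287 and 274 TPM in the siblings. The groups did not overlap, and the log2 difference was -0.57 (SE 0.09, limma adjusted p = 0.00973). The gene mrpl11, for the base of the same stalk, stood at 171 and 179 TPM in the mutants and at 227 and 236 TPM in the siblings, again without overlap (log2 difference -0.40, SE 0.09, limma adjusted p = 0.0224). A bacterial-type protein gene, mrpl36, stood at 188 and 189 TPM in the mutants and at 251 and 228 TPM in the siblings (-0.34, SE 0.09, limma adjusted p = 0.0390). The genes mrpl11 and mrpl36 were called under none of the 3 scalings.

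Not every abundant member moved. The mitochondria-specific gene mrpl57 stood at 160 and 159 TPM in the mutants and at 173 and 154 TPM in the siblings, so that the groups overlapped. Its log2 difference was -0.04 (SE 0.10), and it turned positive under each of the 3 scalings. The mitochondria-specific gene mrpl39 stood at 143 and 109 TPM in the mutants and at 177 and 166 TPM in the siblings. Both mutant libraries were lower, but the mutant pair was spread and the difference of -0.45 (SE 0.15) was not called (limma adjusted p = 0.0639).

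The largest fall of any tested member was in mrpl19, for a bacterial-type protein at the face that meets the small subunit. It stood at 28.0 and 26.0 TPM in the mutants and at 55.5 and 57.1 TPM in the siblings (log2 difference -1.03, SE 0.12, limma adjusted p = 0.00568). This was the only member whose mean TPM was at least 2-fold lower, and 15 were at least 1.5-fold lower. The mitochondria-specific gene mrpl51 followed with 23.8 and 24.3 TPM in the mutants against 43.0 and 42.0 TPM in the siblings (-0.80, SE 0.12, limma adjusted p = 0.00912). Within each group the libraries of these genes lay close together, and between the groups they were far apart. Both genes were named for their called falls, a choice that favours such a pattern.

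The other large-subunit members with the largest called falls lay in a narrow band. The mitochondria-specific gene mrpl53 stood at 65.2 and 72.6 TPM in the mutants against 105 and 116 TPM in the siblings (log2 difference -0.67). The gene mrpl15, for a bacterial-type protein, stood at 56.7 and 72.3 TPM in the mutants against 101 and 99.8 TPM in the siblings (-0.64). The gene mrpl4, whose product reaches into the exit tunnel, stood at 82.9 and 91.7 TPM in the mutants against 140 and 133 TPM in the siblings (-0.64). None of these 3 had overlapping groups. The gene mrpl16, for a protein near the tRNA-binding sites, stood at 95.0 and 78.0 TPM in the mutants against 120 and 143 TPM in the siblings (-0.60), also without overlap though with wider pairs. Of the 3 scalings, mrpl15 was called only with rescaled TPM, and mrpl16 under none.

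By place in the ribosome, the counts per region were small, and they stand beside the 18.6% of all genes tested and the 33.4% of genes of at least 20 TPM that were called lower. Of the 5 genes for proteins near the catalytic centre and upper tunnel (mrpl2, mrpl3, mrpl4, mrpl16, mrpl27), 3 were called lower, and all 5 had both mutant libraries below both siblings. Such separation was also seen in 44% of all genes tested and in 61.3% of genes of at least 20 TPM. Of 6 tested genes around the tunnel exit, 2 were called lower, or 33.3% (median -0.48). Of 6 tested genes of the central protuberance, the crown of the subunit, 2 were called lower, or 33.3% (median -0.39), with ict1 counted here under its current name mrpl58. Of 3 tested genes listed for stalks 2 were called lower, mrpl11 and mrpl12, both of the stalk described above. The third, mrpl1, is for a protein of a separate stalk. It stood at 4.48 and 4.26 TPM in the mutants and at 4.24 and 3.71 TPM in the siblings.

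Of the 5 most abundant small-subunit members 3 were not called. The gene mrps10, for a protein of the head of the subunit, stood at 159 and 141 TPM in the mutants and at 205 and 177 TPM in the siblings (log2 difference -0.35, SE 0.12, limma adjusted p = 0.0691). The gene mrps6 stood at 115 and 125 TPM in the mutants and at 144 and 145 TPM in the siblings (-0.27, adjusted p = 0.0817 by limma). The gene mrps11, for a platform protein near the message exit, stood at 122 and 112 TPM in the mutants and at 147 and 141 TPM in the siblings (-0.30, adjusted p = 0.0624 by limma). In all 3 both mutant libraries were below both siblings, as in 61.3% of genes of at least 20 TPM. The other 2 of the 5, mrps30 and mrps25, were called lower.

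The gene mrps30, the largest fall under a small-subunit name, stood at 83.4 and 92.2 TPM in the mutants and at 138 and 161 TPM in the siblings (log2 difference -0.76, SE 0.12, limma adjusted p = 0.0101). The gene mrps18b, for a distant relative of a bacterial protein that is counted here as mitochondria-specific, stood at 79.6 and 77.5 TPM in the mutants and at 131 and 122 TPM in the siblings (-0.68, SE 0.10, limma adjusted p = 0.00912). Neither gene had overlapping groups.

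The mitochondria-specific genes mrps25 and mrps34 also fell. For mrps25 the level was 84.4 and 94.3 TPM in the mutants, against 147 and 131 TPM in the siblings (log2 difference -0.63). For mrps34 it was 44.5 and 49.6 TPM in the mutants, against 73.9 and 74.5 TPM in the siblings (-0.65). Less abundant members with called falls were mrps31, at 20.1 and 26.7 TPM in the mutants against 35.7 and 38.6 TPM in the siblings (-0.66), and mrps23, at 14.8 and 16.7 TPM in the mutants against 22.3 and 30.1 TPM in the siblings (-0.69). In all 4 of these genes every mutant library lay below every sibling library. Of the 3 scalings, mrps25 was called under 2, and mrps31 and mrps23 under none.

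**Figure D4:**
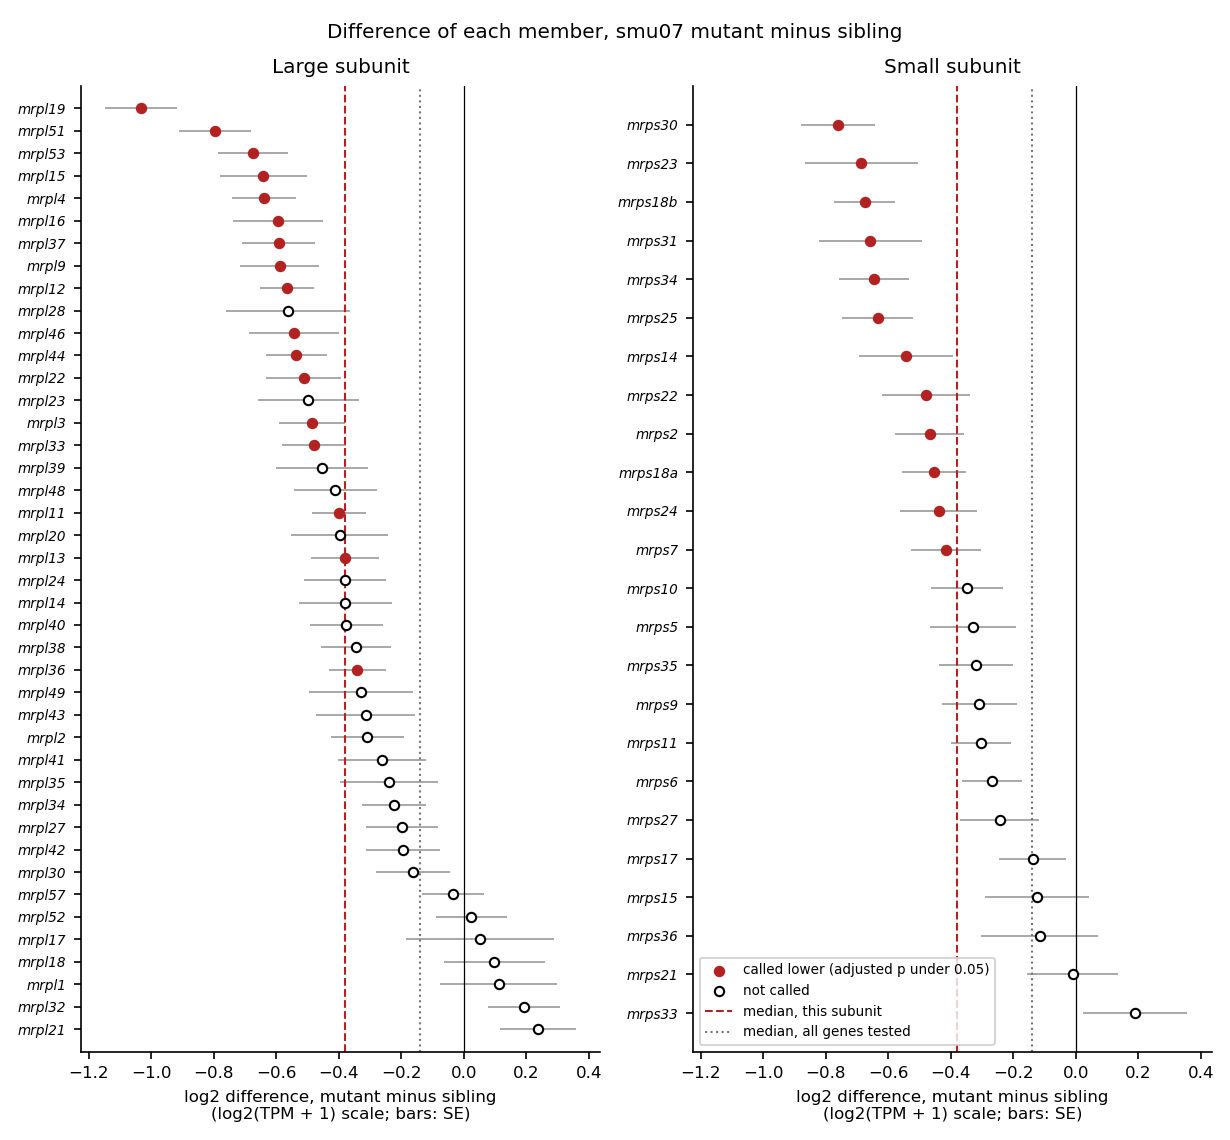
Log2 difference, mutant minus sibling, on the log2(TPM + 1) scale (x axis) for each tested member (y axis), by subunit, with the SE as bars. Filled points are the 17 large-subunit and 12 small-subunit members called lower, the dashed line is the subunit's median (-0.38 in both panels) and the dotted line the median of all genes tested (-0.14). Differences run from -1.03 for mrpl19 to 0.24 for mrpl21.

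By origin of the protein, 16 of 39 tested members with a bacterial counterpart were called lower (41.0%, median -0.38), and 11 of 24 mitochondria-specific members (45.8%, median -0.43). These shares stand beside 18.6% of all genes tested and 33.4% of genes of at least 20 TPM. The remaining 3 tested members are mrps18a, mrps30 and mrps36. The protein of mrps36, which RefSeq now lists as kgd4, is in mammals a part of the oxoglutarate dehydrogenase complex rather than of the ribosome, and its level was 5.37 and 5.01 TPM in the mutants, against 6.34 and 5.12 TPM in the siblings. Within the small subunit, 6 of 9 mitochondria-specific genes were called lower (66.7%, median -0.63). Of those with a bacterial counterpart it was 4 of 13 (30.8%, median -0.31, a count that includes mrps12), near the share of genes of at least 20 TPM. Small-subunit genes under other symbols, such as dap3, chchd1 and ptcd3, are not in the 6 of 9, so these counts are not built alike. Whether these classes differ was not tested.

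Of the tested members 7 had a positive log2 difference and none of these was called. They are named here because of their values. The gene mrpl21 stood at 44.4 and 47.9 TPM in the mutants and at 41.4 and 36.7 TPM in the siblings (log2 difference 0.24, SE 0.12). The gene mrpl32, for a zinc-binding protein that is processed by a protease of the inner membrane, stood at 129 and 141 TPM in the mutants and at 109 and 127 TPM in the siblings (0.19, SE 0.12). In both genes the mutant libraries were the higher ones, by less than the adjusted test required (limma adjusted p = 0.191 and 0.252). The others were mrps33 (0.19), mrpl1 (0.11), mrpl18 (0.10), mrpl17 (0.05) and mrpl52 (0.02).

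Another 8 members were below a mean of 1 TPM and were not tested. Of these, mrpl10, mrpl47, mrpl54, mrps26 and mrps28 were listed at 0 in all 4 libraries. The other 3 rested on a handful of reads. There were 2 and 7 reads for mrpl45 in the mutants and 5 and 4 in the siblings, and 10 and 3 reads for mrps16 in the mutants and 11 and 17 in the siblings. For mrps18c there were 1 and 4 reads in the mutants and 0 in both siblings. A value of 0 says only how the row is listed.

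Neighbouring genes may share reads with members, because the sources used here do not state whether counting used the strand. In the RefSeq annotation of GRCz12tu, 19 of the 66 tested members overlapped another gene, and 13 of these were called lower (median -0.51). Whole gene spans on either strand were compared, introns included, and the submitters' notes name another assembly, GRCz11. Such an overlap need not mean shared reads. Among the 47 without such an overlap 16 were called lower (median -0.34). Over genes with or without an overlap, 18.6% of all genes tested and 33.4% of genes of at least 20 TPM were called lower. The share of the members without an overlap was near the latter. The part of overlaps in the calls was not tested. Of the genes described above, mrpl4, mrpl11, mrpl15, mrpl16, mrpl51, mrpl53, mrps18b and mrps23 overlapped another gene, and mrpl12, mrpl19, mrpl36, mrps25, mrps30, mrps31 and mrps34 did not.

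Of 7 rows for subunits of the same ribosome under other symbols, 4 were called lower and 0 higher, and 3 were not called, beside 18.6% of all genes tested and 33.4% of genes of at least 20 TPM called lower. The gene dap3, for a GTP-binding protein of the small subunit first known from cell death, stood at 125 and 113 TPM in the mutants and at 182 and 185 TPM in the siblings (log2 difference -0.62, SE 0.10, limma adjusted p = 0.0100). The gene ict1, for a hydrolase that frees stalled chains, stood at 31.2 and 27.4 TPM in the mutants and at 46.4 and 51.3 TPM in the siblings (-0.72, SE 0.13, limma adjusted p = 0.0140). Neither gene had overlapping groups.

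The small-subunit genes chchd1 and ptcd3 were called lower as deposited but under none of the 3 scalings. For chchd1 the level was 28.2 and 35.6 TPM in the mutants, against 46.7 and 60.3 TPM in the siblings (log2 difference -0.72). For ptcd3, for a pentatricopeptide repeat protein, it was 32.6 and 35.3 TPM in the mutants, against 46.0 and 51.3 TPM in the siblings (-0.51). Both mutant libraries were below both siblings in each gene.

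The other 3 were not called. For aurkaip1 the level was 94.1 and 119 TPM in the mutants, against 135 and 135 TPM in the siblings (log2 difference -0.34, limma adjusted p = 0.102). For gadd45gip1 it was 100 and 114 TPM in the mutants, against 137 and 124 TPM in the siblings (-0.29, limma adjusted p = 0.102). The decoding-centre gene mrps12, which the table lists by a systematic name, stood at 92.7 and 96.6 TPM in the mutants and at 104 and 101 TPM in the siblings (-0.11, SE 0.10), and its sign turned under each of the 3 scalings.

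The ribosomal RNAs of the mitochondrial ribosome were higher in the mutants, where most of its proteins' transcripts were lower. The small-subunit RNA, mt-rnr1, stood at 706 and 704 TPM in the mutants and at 391.5 and 370.3 TPM in the siblings (log2 difference 0.89, SE 0.08, limma adjusted p = 0.00359). The large-subunit RNA, mt-rnr2, stood at 101463 and 119693 TPM in the mutants and at 82203 and 85332 TPM in the siblings (0.40, SE 0.09, limma adjusted p = 0.0228). Neither RNA had overlapping groups. The difference of mt-rnr2 was 0 under quantile normalization, where the highest row of every library gets the same value.

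The ratio of mt-rnr2 to mt-rnr1 was 144 and 170 in the mutants and 210 and 230 in the siblings. These rows come from amplified cDNA, so they need not follow the amount of each RNA in the cell. The table held no row for the mitochondrially encoded messages listed, which were not analysed here.

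Among genes that build this ribosome and work with it, the lists differed in how many were called. Of 19 tested assembly factors 7 were called lower and 1 higher (median -0.49). The GTPase gene mtg1, for large-subunit assembly, stood at 10.3 and 11.3 TPM in the mutants and at 26.6 and 25.8 TPM in the siblings (log2 difference -1.21, SE 0.14, limma adjusted p = 0.00597). The gene rbfa, for a factor that binds the small subunit, stood at 4.44 and 5.57 TPM in the mutants and at 15.2 and 8.97 TPM in the siblings (-1.09, SE 0.27, limma adjusted p = 0.0313). Its call was lost under median-of-ratios scaling. The gene called higher was ftsj2, which RefSeq lists as mrm2, a methyltransferase of the large-subunit RNA, at 7.44 and 6.76 TPM in the mutants and at 3.59 and 3.64 TPM in the siblings (0.81, SE 0.18, limma adjusted p = 0.0225).

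Of 12 tested translation factors 2 were called lower and 0 higher (median -0.21), a share of 16.7% that is near the 18.6% of all genes tested. The elongation factor gene tufm stood at 165 and 169 TPM in the mutants and at 262 and 301 TPM in the siblings (log2 difference -0.74, SE 0.10, limma adjusted p = 0.00813). The initiation factor gene mtif3 stood at 12.1 and 13.8 TPM in the mutants and at 21.8 and 20.1 TPM in the siblings (-0.66). The groups overlapped in neither gene. Of the 3 scalings, mtif3 was called only with rescaled TPM.

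Of 14 tested mitochondrial tRNA synthetases, which charge the organelle's tRNAs, 7 were called lower and 0 higher (median -0.53). The gene wars2, for tryptophan, stood at 4.97 and 3.98 TPM in the mutants and at 13.8 and 10.9 TPM in the siblings (log2 difference -1.29, SE 0.20, limma adjusted p = 0.0101). Both mutant libraries lay well below both siblings.

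Of 15 tested genes for copying and expressing mitochondrial DNA, 5 were called lower and 0 higher (median -0.35). The gene polg2, for the accessory subunit of the mitochondrial DNA polymerase, stood at 1.70 and 2.95 TPM in the mutants and at 8.45 and 7.04 TPM in the siblings (log2 difference -1.42, SE 0.25, limma adjusted p = 0.0133). The gene tfb2m, for a factor in mitochondrial transcription, stood at 39.9 and 37.2 TPM in the mutants and at 77.0 and 75.7 TPM in the siblings (-0.97). The 18.6% of all genes tested that were called lower is the background for these counts. The medians stayed negative under each of the 3 scalings, and that of the translation factors then lay between -0.19 and -0.05. Some calls in the lists of this and the preceding paragraphs were lost. The genes mterf3, malsu1, ngrn, nars2, tfam and hsd17b10 were called lower as deposited but under none of the 3 scalings. The genes mtg1, tufm, wars2, polg2 and tfb2m were called under all 3, and the others under some or all.

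**Figure D5:**
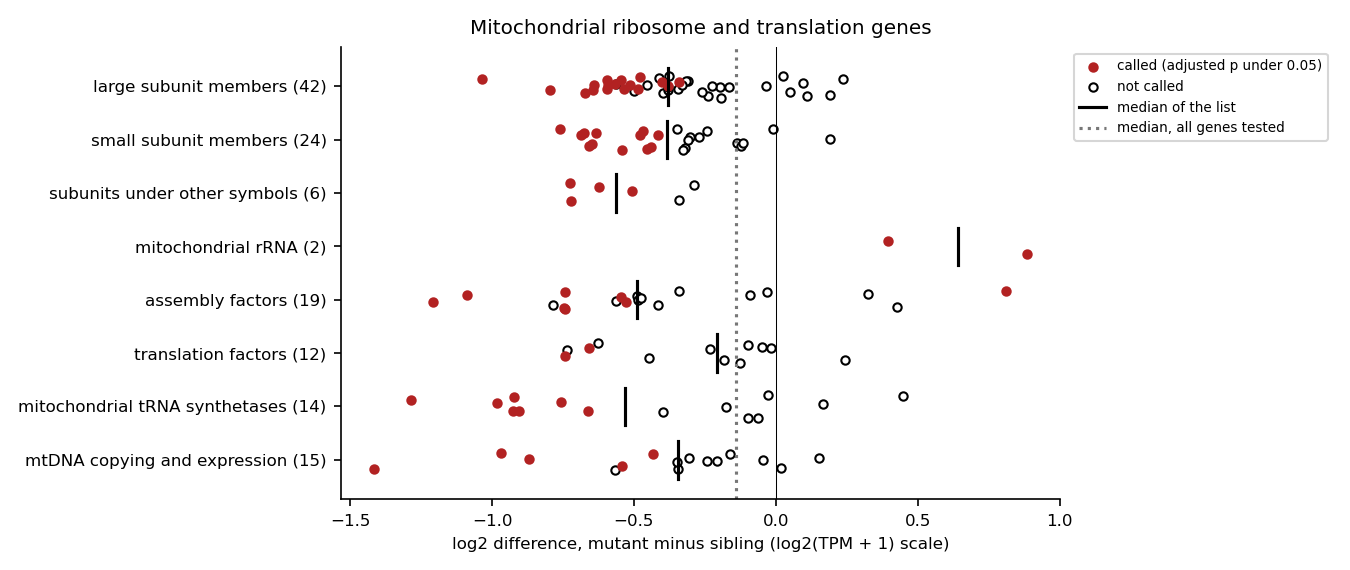
Log2 difference, mutant minus sibling, on the log2(TPM + 1) scale (x axis) for the tested genes of each list (y axis, number of genes in brackets). Filled points were called, lower where left of 0 and higher where right of it, open points were not, bars are the medians and the dotted line is the median of all genes tested (-0.14). The lists of proteins have medians from -0.56 to -0.21, whereas the 2 mitochondrial rRNAs lie at 0.40 and 0.89. The -0.56 is that of the 6 subunits under other symbols, drawn without mrps12 (-0.11).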

How the data were processed

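RNA of about 500 sorted cells per library was amplified as cDNA and sequenced, per the labels' protocols. The authors deposited 1 table of TPM values, with 30838 rows and 1 column per library. The submitters' processing notes name FastQC, STAR, featureCounts and DESeq2 with GRCz11, without versions.

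Genes that averaged 1 TPM or more were tested with limma 3.58.1 in R 4.3.3 on log2(TPM + 1), with a mean-variance trend and group as the only term. Fold changes on this scale understate those of low genes. TPM keeps no depth, but ratios between libraries gave whole reads (tolerance 1e-05) for all 23927 rows detected in 2 or more of them, taken as the smallest possible numbers, so totals may be underestimates. No molecular identifiers are stated, so reads need not be separate molecules. Whether the libraries of a group came from different clutches or sorts is not given in the labels, and the p-values cover only the spread between these libraries, which may be technical. The fit and the recovery were also run on simulated data, with the same dispersion for all genes and few changed genes. That setting differs from this table, where many genes were called, so it does not bear on the choice of scaling.

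Values are given for the 5 most abundant members per subunit, up to 6 called members per subunit and direction, up to 2 called genes per direction of each related list, subunits under other symbols, the mitochondrial rRNAs and members below 1 TPM. 1 gene that this rule names is not reported here. Any other gene named was chosen after its values were seen. Genes called lower mostly have groups that do not overlap, so such separation in a gene named for its call adds no support. All members and lists were chosen with earlier results of these data known. List symbols missing from the table were matched through the synonyms of RefSeq's GRCz12tu annotation, where 73 of the 74 members were found by symbol and mrps36 as a synonym. Alternatives were other pseudocounts, filters and scalings, no trend, a replicate block, voom, the human subunit assignment and leaving out each library.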

Additional observations from a re-analysis of the deposited data

How the results depend on the processing

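The whole table had 2247 genes called lower and 1196 higher. With no filter on low values, median-of-ratios scaling, quantile normalization and TPM rescaled without ribosomal protein genes and mitochondrial rRNA, 1124, 1246, 1390 and 1402 were lower, and 1321, 1543, 1329 and 1463 higher. With a mean TPM of at least 5, 778 were higher. Leaving out 1 library gave 3 to 3206 lower and 0 to 2044 higher. Of the members, 13, 11, 8 and 12 were then called lower under the same 4 settings (8, 7, 5 and 8 of the large and 5, 4, 3 and 4 of the small subunit), 9 with no mean-variance trend (5 large, 4 small), 18 with voom on recovered reads (6 small) and 0 to 31 without 1 library (0 to 19 large, 0 to 12 small). Members called higher were 2 under quantile normalization (2 large). With the replicate block 19 members were called lower, 6 of them small. With no mean-variance trend the share called lower was 13.6% of the tested members, near the 12.8% of all genes tested. It was 27.3% beside 16.5% with voom, 28.8% beside 13.9% with the replicate block and 18.8% beside 4.31% with no filter on low values. Without the filter, 26105 rows were tested instead of 12073, but 69 members instead of 66. That background therefore holds many rows below a mean of 1 TPM. No share matched for abundance was computed for these settings. The sample numbers share no stated clutch, and the deviations of same-numbered libraries correlated at -0.046 over 12073 genes, so they were not taken as pairs. The subunit medians under median-of-ratios, quantile and rescaled TPM were -0.21, -0.17 and -0.24 (large) and -0.21, -0.18 and -0.24 (small), and -0.31 with voom for the large. The ratio of large to small, mutant over sibling, was 1.03, and 0.994 with mrps18a and mrps30 counted as large. Signs turned for mrpl57 (0.14, 0.16 and 0.10 under median-of-ratios, quantile and rescaled TPM, 0.043 with voom, -0.12 to 0.050 with 1 library left out) and for mrps12 (0.060, 0.10 and 0.025 under the 3 scalings). The cause was not tested. Among the named genes' other values, 403 kept their direction and side of the threshold, 117 lost the call and 4 gained it. Depth limits mrpl45, mrps16 and mrps18c, which had at most 17 reads in a library.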
